A study of Homo sapiens with 6 samples.

Results

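The genes described here are 10 readouts and regulators of signalling by transforming growth factor beta (TGF-β) and the bone morphogenetic proteins (BMPs): ID1, ID2, ID3, ID4, SMAD6, SMAD7, BAMBI, BMP4, TGFB1 and SKIL. They were chosen by name for their place in the pathway. Of the 59192 features measured, 9 were rows of these genes, and 8 of the 9 were abundant enough to be tested. ID1 was not analysed here, and ID4 was close to 0 in every library.

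RNA was sequenced from SW480, an established human colorectal cancer cell line, in 6 libraries. SW480-45 (3 libraries) carries Cas9, delivered by lentivirus and kept by puromycin selection, with a guide RNA against HPSE, and its label gives the genotype as HPSE knockdown. SW480-NC (3 libraries) carries the same Cas9 with a control guide. Both lines were stable and the labels give no further treatment. The libraries of each line came from independent experiments according to the study's methods, and whether either line is a single clone is not given in the sources used here. The comparison asks whether cells with less heparanase, the enzyme that cuts heparan sulfate chains and is encoded by HPSE, hold different amounts of mRNA for genes of this pathway.

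TGF-β and BMP ligands bind pairs of receptor kinases at the cell surface, which phosphorylate SMAD proteins that then enter the nucleus and bind DNA. BMP signals act mainly through SMAD1, SMAD5 and SMAD9 and switch on the ID genes, whose proteins capture basic helix-loop-helix factors and keep them off DNA, while TGF-β signals act mainly through SMAD2 and SMAD3. Both branches induce their own brakes, among them SMAD6, SMAD7, BAMBI and SKIL, and both restrain the growth of normal colon epithelium. Heparan sulfate, the substrate of heparanase, binds many of the ligands and their extracellular antagonists.

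SMAD proteins act on genes such as these through short DNA elements, so the 250 bases before the RefSeq start of each gene were searched for 3 of them. RefSeq (GRCh38.p14) had a promoter for all 10 genes. The searched letters were GTCTAGAC, a palindromic pair of SMAD boxes, GGCGCC, a GC-rich SMAD element that reads the same on both strands, and CAGACA with its reverse complement TGTCTG. Stretches are shown for every gene whose window held a match, which were SMAD6, BAMBI, BMP4 and SKIL. These 4 genes are brakes and a ligand of the pathway. Capitals mark the match.
SMAD6, chr15:66702204-66702235, plus strand: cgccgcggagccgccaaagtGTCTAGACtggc
BAMBI, chr10:28677292-28677365, plus strand: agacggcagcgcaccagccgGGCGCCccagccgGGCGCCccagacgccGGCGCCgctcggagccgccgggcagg
BMP4, chr14:53955257-53955300, minus strand: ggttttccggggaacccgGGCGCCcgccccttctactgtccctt
SKIL, chr3:170357505-170357550, plus strand: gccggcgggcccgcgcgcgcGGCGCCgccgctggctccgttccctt

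The SMAD box pair began 12 bases before the start of SMAD6 and was present in 62 of 34788 promoters (0.178%). GGCGCC was present in 16.4% of these promoters and occurred 3 times before BAMBI and once before BMP4 and SKIL. These starts are those of RefSeq, and GENCODE places some exons further upstream. In GENCODE 29, 24 bases of the BAMBI stretch and 8 of the SMAD6 stretch are exonic, and the last BAMBI match and the SMAD6 match run across the annotated start of the gene. The 250-base windows of ID3 and SMAD7 lie wholly in annotated exons. In the window of ID2 the longest stretch free of annotated exons is 21 bases. The CAGA letters were present in 13.6% of promoters and in none of these 10. The windows of ID1, ID2, ID3, ID4, SMAD7 and TGFB1 held none of the searched letters. A match is a description of the letters, and binding was not measured.

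Each library held 33221323 to 39802365 reads, and values are given as normalized counts, read counts divided by 1 size factor per library. HPSE (ENSG00000173083) stood at 136, 172.5 and 146 normalized counts in SW480-45 and at 269.9, 295 and 246 in SW480-NC, 56.1% of the control mean with no overlap (limma, log2 difference -0.83, SE 0.14, adjusted p = 0.0547). Of 9 epithelial markers 6 were measured. EPCAM, KRT8, KRT20 and VIL1 were abundant in both lines, CDX2 was low (19.0 to 40.3 normalized counts) and CDH17 was at 0 in all libraries but 1, where it had 3 reads. Their summed level was 101960 to 109650 in SW480-45 and 118140 to 123930 in SW480-NC. KRT20, a keratin of differentiated colon epithelium, was lower in SW480-45 (4541 ± 82.3 against 7952 ± 619, SD, n = 3, limma adjusted p = 0.00719, 0.0859 with no intensity trend and 0.061 with a block on the replicate number). KRT8 (75512 ± 4413 against 87410.0 ± 3039, limma adjusted p = 0.141) and EPCAM (17564 ± 683 against 18657 ± 147, limma adjusted p = 0.454) were below their SW480-NC libraries in all 3 SW480-45 libraries. VIL1, the villin of the brush border, was above them in all 3 (9094 ± 360 against 7902 ± 539, limma adjusted p = 0.225). Fibroblast markers (4 of 6 measured) summed to 280 to 387 in SW480-45 and 229 to 264 in SW480-NC, mostly COL1A1. Endothelial markers (3 of 4) summed to 28.0 to 43.2 and 12.6 to 26.5. Of 5 leukocyte markers 2 were measured. LYZ, which encodes lysozyme, stood at 62020.2, 59444 and 62190.0 normalized counts in SW480-45 and at 69669, 71955 and 67163 in SW480-NC. The part of these marker levels in the results below was not tested.

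None of the 8 tested genes differed between the lines after adjustment over all 21703 tested features, where 0.802% passed an adjusted p of 0.05 (limma on log2(normalized count + 1), 174 features), 0.332% higher and 0.47% lower in SW480-45. The count was also 0 with edgeR and with DESeq2. At an unadjusted p below 0.05, 2 of the 8 (ID2 and BAMBI, 25%) were higher in SW480-45, against 16.2% of all tested features in either direction and 8.1% in that direction. The lines did not overlap for 1 of the 8 (ID2, 12.5%), against 23.4% of all features. Log2 differences (SW480-45 minus SW480-NC) were above 0 for 5 and below 0 for 3 genes, where 49.3% of all features were above 0. Their median was 0.01 and their median size regardless of sign 0.07, beside -0.00 and 0.20 over all features. Over features averaging 100 normalized counts or more, as 7 of the 8 genes do, the median size was 0.14. In bulk RNA, fewer cells of one kind and less RNA per cell cannot be told apart.

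**Figure D1:**
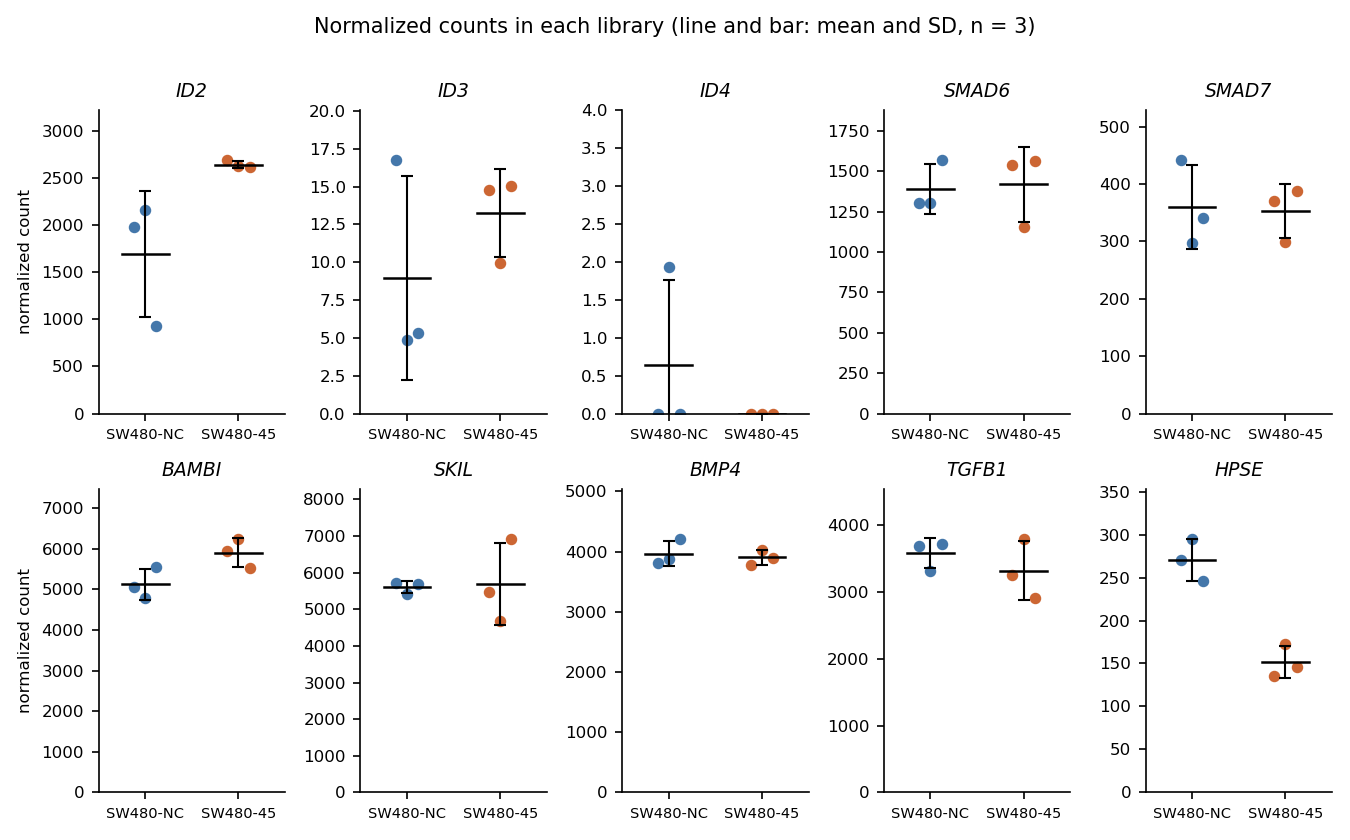
Normalized counts of HPSE and the measured genes of the pathway in the 6 libraries, with SW480-NC in blue and SW480-45 in orange; lines and bars are the mean and SD (n = 3). Only HPSE and ID2 have no overlap between the lines, and the ID2 value of 928 in 1 SW480-NC library lies far below the other two.

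The ID genes are the classical BMP readout. ID2 (ENSG00000115738; GRCh38 chromosome 2, 8678845 to 8684453, plus strand) stood at 2692, 2631 and 2620 normalized counts in SW480-45. In SW480-NC it stood at 1981, 2169 and 928. All 3 SW480-45 libraries lay above all 3 SW480-NC libraries, and the SW480-NC spread came mostly from replicate 3. The means were 2648 ± 38.8 and 1693 ± 669 (SD, n = 3). The log2 difference was 0.74 (SE 0.29, 95% interval 0.07 to 1.41), and the limma adjusted p was 0.272. That is a 1.67-fold higher level from means of log2 values, whereas the ratio of the means given above was 1.56. With edgeR and with DESeq2 the log2 difference was 0.65. Without replicate 3 of SW480-NC the log2 difference was 0.35 (SE 0.08) and the adjusted p 0.114, so this library decided the size of the difference. An exact permutation test of the 6 libraries gave p = 0.1, the smallest that 3 against 3 can give.

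ID2 overlaps ID2-AS1 on the opposite strand, and whether reads were counted by strand is not given in the sources used here. ID2-AS1 stood at 168 ± 13.8 normalized counts in SW480-45 and 139 ± 24.9 in SW480-NC (n = 3, exact permutation p = 0.2), far below ID2 itself.

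ID3 (ENSG00000117318; chromosome 1, 23557918 to 23559794, minus strand), another inhibitor of helix-loop-helix factors, was barely expressed. It stood at 14.8, 9.93 and 15.1 normalized counts in SW480-45 and at 16.7, 4.83 and 5.30 in SW480-NC, from 5 to 16 reads per library. The highest value of all was in SW480-NC, so the lines overlapped. With a log2 difference of 0.70 (SE 0.56, 95% interval -0.61 to 2.01, limma adjusted p = 0.585), no difference was detectable at this depth. ID4 (ENSG00000172201), the remaining measured family member, had 2 reads in SW480-NC replicate 2 and 0 in the other libraries, where a count of 0 allows up to 3 reads or 2.71 to 3.18 normalized counts. It was below the filter and was not tested.

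SMAD6 and SMAD7 are the inhibitory SMADs, which block receptors and compete with the signalling SMADs. SMAD6 (ENSG00000137834; chromosome 15, 66702228 to 66782848, plus strand) stood at 1537, 1154 and 1565 normalized counts in SW480-45 and at 1301, 1302 and 1568 in SW480-NC. SW480-45 supplied the lowest value and SW480-NC the highest. The log2 difference was 0.02 (SE 0.14, 95% interval -0.31 to 0.35, limma adjusted p = 0.959). SMAD7 (ENSG00000101665; chromosome 18, 48919853 to 48952052, minus strand), which acts on both branches, stood at 371, 300 and 388 in SW480-45 and at 441, 297 and 341 in SW480-NC. These values were interleaved. The log2 difference was -0.02 (SE 0.17, 95% interval -0.42 to 0.39, limma adjusted p = 0.971), so a change of up to about a 1.31-fold rise or a fall to 0.745 of the control level lies within the interval.

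BAMBI encodes a decoy receptor that lacks the kinase domain and dampens TGF-β and BMP signals. BAMBI (ENSG00000095739; chromosome 10, 28677342 to 28682939, plus strand) stood at 5950, 6236 and 5525 normalized counts in SW480-45 and at 5056, 4792 and 5541 in SW480-NC. The lowest SW480-45 library and the highest SW480-NC library nearly coincided, and the other libraries were apart. The means were 5904 ± 358 and 5130 ± 380 (SD, n = 3). The difference of 0.20 on the log2 scale (SE 0.08, 95% interval 0.02 to 0.39), a 1.15-fold higher level, did not pass the adjustment (limma, unadjusted p = 0.0365, adjusted p = 0.274).

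SKIL encodes SnoN, a repressor that binds SMAD complexes on DNA. SKIL (ENSG00000136603; chromosome 3, 170357678 to 170396835, plus strand) stood at 5472, 4684 and 6913 normalized counts in SW480-45 and at 5717, 5406 and 5683 in SW480-NC. One SW480-45 library lay above the narrow SW480-NC range, 1 below it and 1 inside it. The means nearly coincided (log2 difference 0.00, SE 0.13, 95% interval -0.30 to 0.31, limma adjusted p = 0.992).

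Both ligands of the list were well expressed. BMP4 (ENSG00000125378; chromosome 14, 53949736 to 53958761, minus strand), a ligand of the BMP branch, stood at 3782, 4028 and 3902 normalized counts in SW480-45 and at 3812, 3880 and 4206 in SW480-NC. Its libraries overlapped, and its interval was the narrowest of the 8 genes (log2 difference -0.02, SE 0.07, 95% interval -0.18 to 0.14, limma adjusted p = 0.906). TGFB1 (ENSG00000105329; chromosome 19, 41301587 to 41353911, minus strand), the main TGF-β ligand, stood at 3257, 3791 and 2912 in SW480-45 and at 3697, 3320 and 3724 in SW480-NC. Both the highest and the lowest value were in SW480-45. The difference of -0.12 on the log2 scale (SE 0.11, 95% interval -0.37 to 0.13) lay within the spread (limma adjusted p = 0.634). It was -0.03 without SW480-45 replicate 3 and -0.22 without SW480-45 replicate 2. The annotated extent of TGFB1 overlaps HNRNPUL1 and CCDC97 on the opposite strand. Over all libraries HNRNPUL1 averaged 13166 and CCDC97 1672 normalized counts, beside 3450 for TGFB1. The part of this overlap in the TGFB1 level was not tested.

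**Figure D2:**
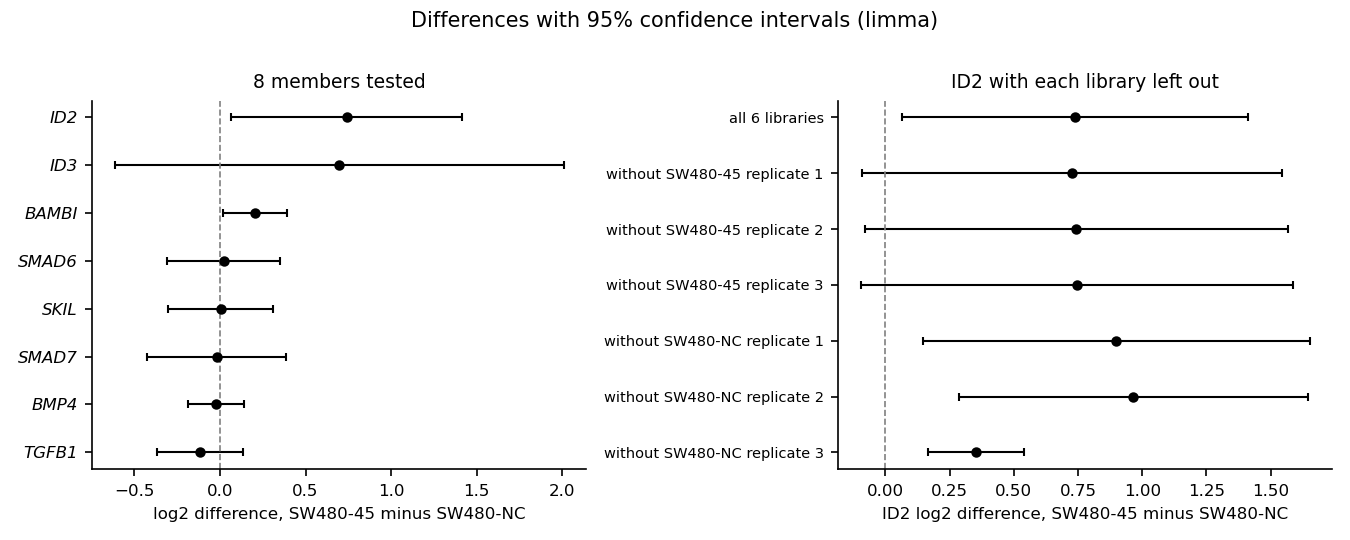
Log2 difference, SW480-45 minus SW480-NC, of each tested gene with its 95% interval from the limma fit. A second panel shows ID2 with each library left out. ID2 lies at 0.74 with all libraries, and the intervals of ID3, SMAD6, SMAD7, BMP4, TGFB1 and SKIL include 0.

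Levels were compared between genes as normalized counts per kilobase of annotated exon. In SW480-NC, BAMBI had the highest level per kilobase, 2217 (2071 to 2395 over the 3 libraries). BMP4 followed at 1287 (1237 to 1365) and TGFB1 at 1106 (1025 to 1150). ID2 at 768 (421 to 984) and SKIL at 720 (695 to 735) overlapped and had no clear order. Both inhibitory SMADs were lower, SMAD6 at 162 (152 to 183) and SMAD7 at 71.6 (59.1 to 87.7), and ID3 was lowest of the tested genes at 4.98 (2.69 to 9.31). In SW480-45, ID2 at 1201 (1188 to 1221) and TGFB1 at 1025 (899 to 1171) changed places, with no overlap between these ranges, and ID2 lay just below the BMP4 range (1227 to 1307). In both lines the decoy receptor gene BAMBI and the ligand gene BMP4 had the highest levels per kilobase of the 9 measured genes, and ID3 and ID4 the lowest.

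Beyond these genes, 118 others of the pathway were listed in 9 roles, of which 86 were measured and 66 tested. One, ITGAV, passed the adjusted threshold (0 higher and 1 lower in SW480-45, limma, against 174 of 21703 features or 0.802%). With edgeR 0 passed, against 136 of the 21703 features, and with DESeq2 8 passed, against 756 of them. At an unadjusted p below 0.05, 5 were higher and 11 lower (24.2% in all, against 16.2% of all features, 8.1% higher and 8.15% lower). The lines did not overlap for 20 of the 66 (30.3%, against 23.4%), 5 higher and 15 lower, where 11.4% and 12% of all features did not overlap in those directions. The median log2 difference of the 66 was -0.05 and its median size 0.19, beside -0.00 and 0.20 over all features. Of these genes 54 averaged at least 50 normalized counts. Over features averaging 100 normalized counts or more, the median size was 0.14.

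**Figure D3:**
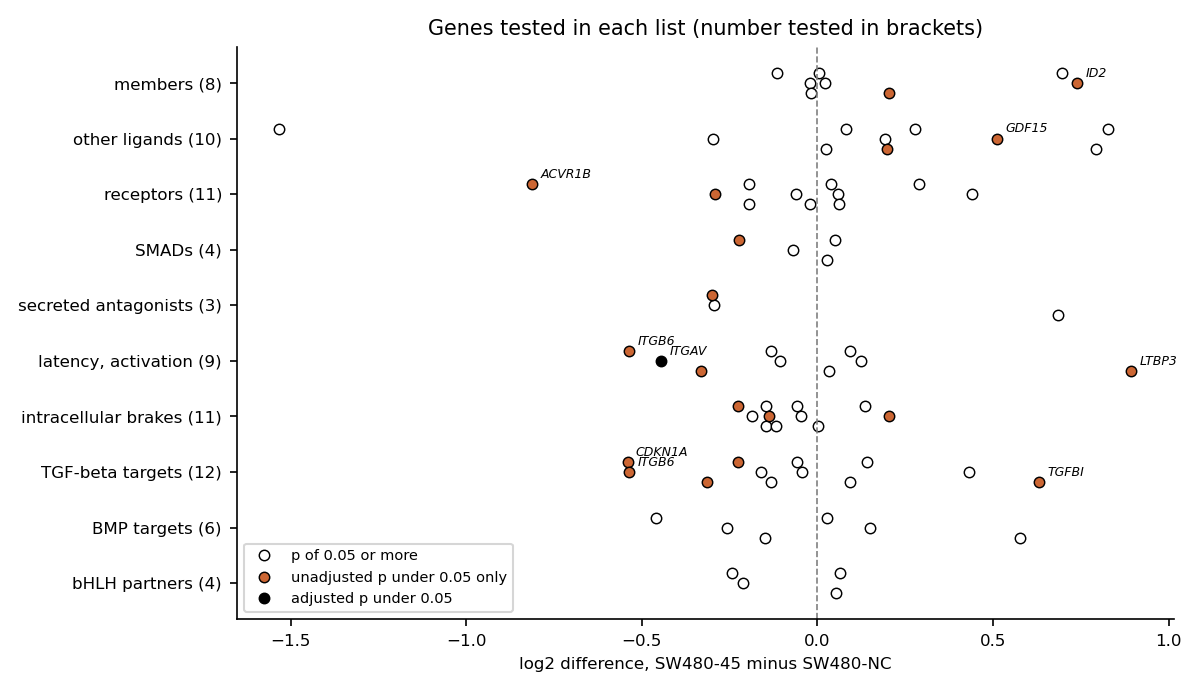
Log2 differences, SW480-45 minus SW480-NC, from the limma fit, of the tested members and of the tested genes in each role of the pathway. There is 1 point per gene in each role, so a gene with several roles appears in each. The points run from -1.53 to 0.89 on both sides of 0, and ITGAV at -0.45 is the single gene past the adjusted threshold.

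TGF-β is secreted in a latent complex, and LTBP proteins hold it in the matrix until integrins or thrombospondin release it. Of 9 tested genes with such roles, ITGAV fell and none rose at the adjusted threshold, which 0.802% of all features passed. At the unadjusted threshold 3 were lower and 1 higher, against 8.15% and 8.1% of all features. ITGAV, the αv integrin subunit, stood at 5436, 5182 and 5713 normalized counts in SW480-45 and at 7613, 7706 and 6922 in SW480-NC. All SW480-45 libraries lay below all SW480-NC libraries. The log2 difference was -0.45 (SE 0.07, limma adjusted p = 0.0437). The call was lost when any of the 6 libraries was left out (adjusted p from 0.0515 to 0.177), and under 4 of the 10 other alternatives.

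ITGB6, the β6 subunit that pairs with αv, stood at 5021, 4755 and 5537 in SW480-45 and at 7087, 8375 and 6779 in SW480-NC, again without overlap. Its log2 difference of -0.54 (SE 0.10) missed the adjusted threshold (limma, adjusted p = 0.0697). FURIN, the protease that cleaves the TGF-β precursor, differed by 0.03 (limma adjusted p = 0.911). LTBP3 and THBS1, chosen after their values were seen, pointed in opposite directions. LTBP3, a latent TGF-β binding protein, stood at 678 ± 92.8 in SW480-45 and 371 ± 97.7 in SW480-NC (SD, n = 3, log2 difference 0.89, limma adjusted p = 0.109). THBS1, thrombospondin, stood at 1520 ± 46.7 and 1915 ± 136 (SD, n = 3, log2 difference -0.33, limma adjusted p = 0.128).

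Receptors and signalling SMADs gave no call at the adjusted threshold (0 of 11 and 0 of 4, limma), where 0.802% of all features passed. At the unadjusted threshold 2 and 1 were lower, against 8.15% of all features. TGFBR2, the receptor that binds TGF-β first, stood at 4954, 4964 and 4845 in SW480-45 and at 6059, 5924 and 6069 in SW480-NC. The libraries were tightly grouped and did not overlap. The log2 difference was -0.29 (SE 0.06, limma unadjusted p = 0.00112, adjusted p = 0.0814). The BMP receptor BMPR1A differed by -0.06 (adjusted p = 0.781) and ENG, a co-receptor, by 0.04 (adjusted p = 0.942). SMAD3, a carrier of the TGF-β signal, stood at 7744 ± 145 in SW480-45 and 9049 ± 498 in SW480-NC (SD, n = 3, log2 difference -0.22, limma adjusted p = 0.159). SMAD2, its partner in that branch, differed by -0.07 (adjusted p = 0.734) and SMAD1 of the BMP branch by 0.05 (adjusted p = 0.884). SMAD4 and SMAD5 were not analysed here.

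Ligands other than BMP4 and TGFB1 gave no call at the adjusted threshold (0 of 10, against 0.802% of all features), with 2 higher at the unadjusted one (8.1% of all features). GDF15, a distant family member induced by cell stress, stood at 3041 ± 578 normalized counts in SW480-45 and 2135 ± 437 in SW480-NC (SD, n = 3, log2 difference 0.51, limma adjusted p = 0.244). GDF11 stood at 1594 ± 43.5 and 1389 ± 39.1 (SD, n = 3, log2 difference 0.20, limma adjusted p = 0.251). BMP8B differed by 0.19 (adjusted p = 0.43). Among 3 tested extracellular antagonists, 0 passed the adjusted threshold and 1 was lower at the unadjusted one (8.15% of all features). TWSG1, which binds BMPs outside the cell, stood at 4323 ± 271 and 5321 ± 328 (SD, n = 3, log2 difference -0.30, limma adjusted p = 0.137). FSTL3, an activin antagonist, differed by -0.29 (adjusted p = 0.936) and DAND5, an antagonist of nodal, by 0.68 (adjusted p = 0.671). DAND5 had 3 to 22 reads per library, and leaving out SW480-NC replicate 2 gave a difference of 0.13, leaving out SW480-45 replicate 1 one of 1.03.

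Intracellular regulators gave 0 of 11 at the adjusted threshold (0.802% of all features), with 1 higher and 2 lower at the unadjusted one (8.1% and 8.15% of all features). The lines did not overlap for 6 of the 11 (54.5%, against 23.4% of all features), 1 higher and 5 lower (11.4% and 12% of all features). NEDD4L, a ubiquitin ligase that acts on SMADs, differed by 0.21 (limma adjusted p = 0.212), SMURF1, another such ligase, by -0.14 (adjusted p = 0.299) and STRAP, which binds receptors and SMAD7, by -0.06 (adjusted p = 0.651).

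Target genes were split by branch. Of 12 tested TGF-β targets 0 passed the adjusted threshold (0.802% of all features). At the unadjusted threshold 1 was higher and 4 were lower (8.1% and 8.15% of all features), and 6 had no overlap between the lines (23.4%). Of the 4 lower genes, ITGB6 is also counted among the latency genes and PMEPA1 among the intracellular regulators. KLF10, an early TGF-β response gene, stood at 3907, 4091 and 3703 in SW480-45 and at 5067, 4715 and 4770 in SW480-NC, with a log2 difference of -0.32 (limma adjusted p = 0.102). TGFBI, a matrix protein named for its induction by TGF-β, went the other way, with 1976, 2644 and 2068 in SW480-45 and 1447, 1227 and 1637 in SW480-NC and a log2 difference of 0.63 (limma adjusted p = 0.110). Both had no overlap between the lines. CDKN1A, the cell cycle inhibitor p21 and also chosen after its values were seen, stood at 812 ± 89.1 and 1180 ± 97.3 (SD, n = 3, log2 difference -0.54, limma adjusted p = 0.0957).

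Of 6 tested BMP targets 0 passed the adjusted or the unadjusted threshold (0.802% and 16.2% of all features) and 0 were free of overlap (23.4%). These genes were low, with means from 10.6 (ATOH8) to 163 (MSX2) normalized counts over the 6 libraries, whereas KLF10 and TGFBI averaged 4376 and 1833. MSX2 differed by -0.15 (limma adjusted p = 0.737), HEY1 by 0.58 (adjusted p = 0.407) and SMAD9, itself a BMP-induced SMAD, by 0.03 (adjusted p = 0.943). Helix-loop-helix factors, the class that ID proteins hold back, gave 0 of 4 at either threshold (0.802% and 16.2% of all features). TCF12 differed by 0.06 (limma adjusted p = 0.673), ATOH1, a driver of secretory cell fate in the gut, by -0.21 (adjusted p = 0.669) and NEUROG3 by 0.05 (adjusted p = 0.959).

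**Figure D4:**
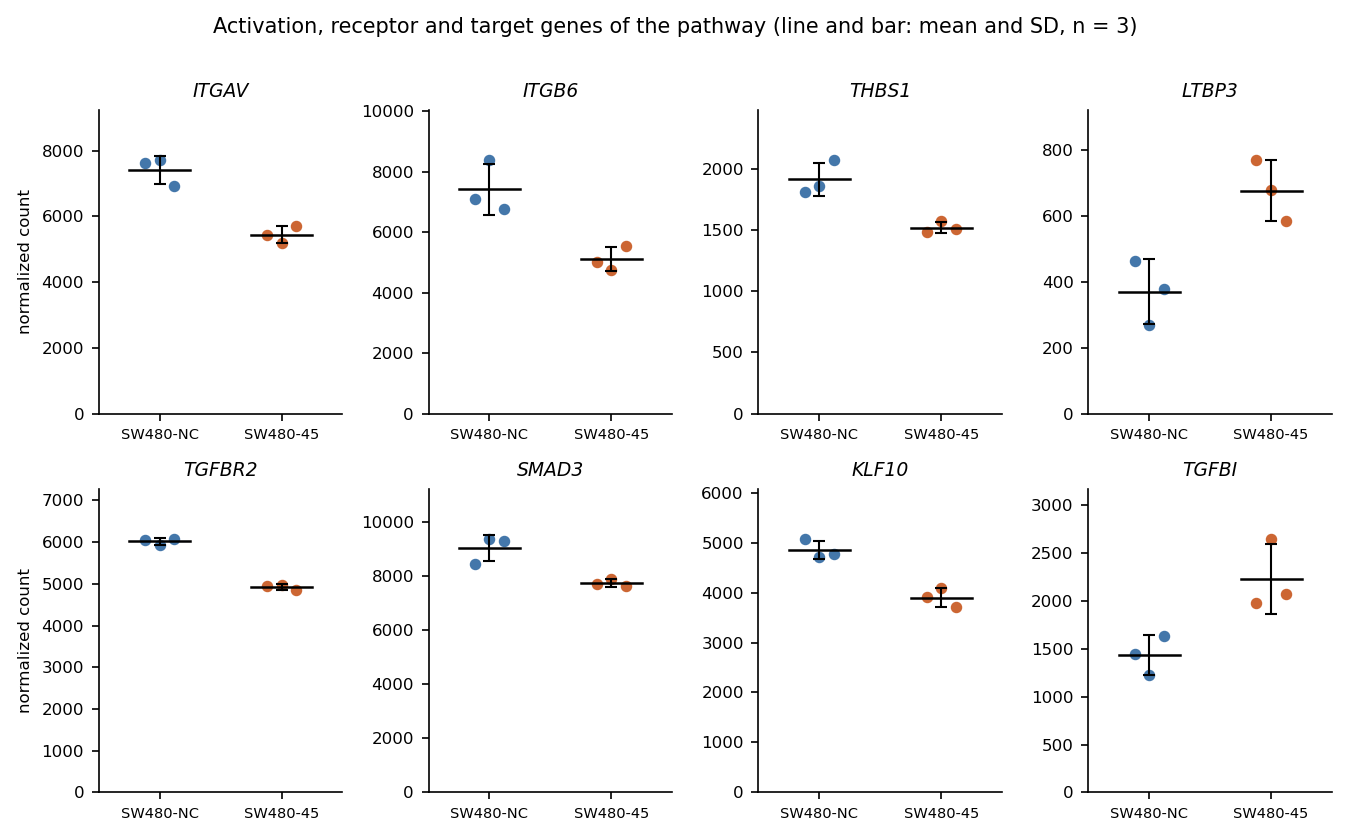
Normalized counts of 8 pathway genes in the 6 libraries, with SW480-NC in blue and SW480-45 in orange; lines and bars are the mean and SD (n = 3). The lines do not overlap in any panel, with LTBP3 and TGFBI higher and the other 6 genes lower in SW480-45, and only ITGAV passed the adjusted threshold. The 8 genes are a selection from the 66 tested, of which 20 had no overlap (30.3%, against 23.4% of all features).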

How the data were processed

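Total RNA of 6 SW480 cultures was extracted with Trizol and made into Illumina libraries by the authors. The submitters' processing notes name HISAT2, DESeq2, bcl2fastq and GRCh38, without their roles, and the study's methods name Cuffdiff. The deposited table gives a signal for every feature, which is a count that the authors divided by 1 size factor per library, for 25927 Ensembl genes and 33265 loci numbered by a transcript assembler. Symbols were found for 25595 Ensembl genes. Which reads of a named gene were counted under such a locus cannot be told from the values. Coordinates are those of GENCODE 29.

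In each library 100% of values were whole multiples of 1 step (tolerance 0.01), which gave back the reads. Features averaging 10 or more normalized counts over the libraries (21703) were compared by limma 3.58.1 (R 4.3.3) with an intensity trend on log2(normalized count + 1), with Benjamini-Hochberg adjustment over all of them. The pseudocount alters log2 differences of low genes, as for ID3 (0.70 with 1 and 0.48 with 5). The value with a pseudocount of 1 is not a lower bound, since ID3 differed by 0.57 with edgeR and with DESeq2. Alternatives were a pseudocount of 5, no filter, a mean of at least 50, TMM rescaling, quantile normalization, no intensity trend, leaving out the assembler's loci, a block on the replicate number, leaving out single libraries, and count models of the reads with DESeq2 1.42.0 or the quasi-likelihood test of edgeR 4.0.16. The steps were tested on simulated data with planted log2 differences larger than any given here. This does not show how well smaller differences are found.

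Genes named with values are HPSE, the 10 genes, pathway genes past the adjusted threshold and up to 3 of the most abundant in each list. LTBP3, THBS1, CDKN1A, ACVR1B, TGFBR1, PMEPA1, ATOH8 and the single markers were chosen after their values were seen. The members and lists were chosen with earlier results of these data known. Python 3.11.15 with matplotlib 3.10.9 made the figures. One item of the leukocyte marker list is not reported here.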

Additional observations from a re-analysis of the deposited data

How the results depend on the processing

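The count for the 10 genes was 0 under every alternative that was run, over 7 to 9 tested genes. ID3 was not tested with a mean of at least 50 or without SW480-NC replicate 1 and had no adjusted p with DESeq2. ID2 kept its direction throughout, with a log2 difference from 0.35 (without SW480-NC replicate 3) to 0.96 and adjusted p-values from 0.114 up, and when a library was left out BAMBI ranged from 0.16 to 0.26 and ID3 from 0.41 to 0.88. Over all features the count was 174, and 11 with no intensity trend, 12 with the replicate number as a block, 756 with DESeq2, 36 to 104 when a library was left out, and 119 to 232 otherwise. Over all tested features the replicate numbers showed no pairing. Same-numbered libraries correlated by -0.02 to 0.007, and 2 of 6 were closest to their own number. Such a correlation does not show whether single genes shift together by replicate number. With the replicate block the SE was smaller for FSTL3 (0.2264 against 1.3303 in the main fit) and GDF15 (0.0928 against 0.1867). It was larger for BAMBI (0.0998 against 0.0803). Of the other pathway genes 1 was called, 2 with no filter, 0 with quantile normalization, no trend, the replicate block or edgeR, 8 with DESeq2, and 0 when any library was left out. These 8 were TGFBR2, ACVR1B, LTBP3, ITGAV, ITGB6, TGFBI, KLF10 and CDKN1A. HPSE passed the threshold at -0.83 with no filter (adjusted p = 0.0451), a mean of at least 50 (0.0459), Ensembl genes only (0.0462) and DESeq2 (0.000948), and ranged from -0.93 to -0.76 when a library was left out. Under quantile normalization the sign turned for BMP4 (0.0351), SMAD1 (-0.0023), STRAP (0.0163) and SMAD9 (-0.0496). Leaving out a library turned the sign of genes near 0, with ranges of -0.0562 to 0.16 for SMAD6, -0.15 to 0.14 for SMAD7, -0.0497 to 0.0213 for BMP4, -0.15 to 0.14 for SKIL, -0.12 to 0.015 for BMPR1A, -0.19 to 0.20 for ENG, -0.0132 to 0.17 for SMAD1, -1.58 to 0.99 for FSTL3, -0.0668 to 0.12 for FURIN, -0.0633 to 0.0727 for SMAD9 and -0.13 to 0.33 for NEUROG3. The cause of these changes was not tested. Genes with under 20 reads, such as ID3, allow no firm statement, and with 3 libraries a line an exact test cannot go below p = 0.1.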

Other observations

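Some pathway genes with no call at the adjusted threshold had 1 or 2 libraries far from the rest of their line. FSTL3 stood at 121, 125 and 7.54 normalized counts in SW480-45 and at 175, 129 and 9.54 in SW480-NC, so the third library of each line was low. ACVR1B, a receptor of activins, stood at 874, 1046 and 901 in SW480-45 and at 1637, 999 and 2729 in SW480-NC. TGFBR1, the partner of TGFBR2, stood at 507, 1015 and 1031 in SW480-45 and at 552, 597 and 643 in SW480-NC. These genes were chosen after their values were seen, and what sets these libraries apart was not tested.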
